A study of Mus musculus with 16 samples.

Results

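Glutathione peroxidases were measured in the lungs of mice exposed to a tobacco carcinogen, to dietary selenocystine, or to both. All non-control probes named Gpx1 to Gpx7 were taken, whatever their values. They were 8 probes of 41174 on the array, with a pair for Gpx1 and 1 probe for each of the other genes, so the family made up 7 of 27703 gene names. Of these 7 genes, 5 had a signal well above background and were tested (Gpx1, Gpx2, Gpx3, Gpx4 and Gpx7), and Gpx5 and Gpx6 were not. All of the mice were A/J females, an inbred strain prone to lung tumours, and every group of 4 ate an AIN-76 diet with 0.35 ppm selenium. The Untreated mice are labelled as controls with no injection or supplement named. The NNK mice received a single intraperitoneal injection of NNK, a nitrosamine specific to tobacco, at 10 uM in 0.2 mL of saline, and were killed 13 days later. The SECY mice were fed selenocystine, the oxidised dimer of selenocysteine, at 15 ppm for 10 days. The NNK+SECY mice received the same injection, then the selenocystine diet from day 3 for 10 days. Lung RNA of each mouse, labelled with Cy5, was hybridised against an equal mix of the 4 Untreated RNAs, labelled with Cy3, on 1 of 16 arrays, and no dyes were swapped. The labels describe the mice of a group as biological replicates.

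Glutathione peroxidases reduce hydrogen peroxide and lipid hydroperoxides with electrons from glutathione, and glutathione reductase then restores the oxidised glutathione. In Gpx1 to Gpx4 the catalytic residue is selenocysteine, which is inserted at a UGA codon by a dedicated machinery, so these proteins depend on selenium. In mouse Gpx5, Gpx6 and Gpx7 a cysteine takes its place. Gpx2 is known from epithelia such as that of the gut, and in other systems it is a known target of NRF2, the transcription factor that responds to electrophiles.

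Gpx2 was the member that passed the test, and its promoter is shown for that reason. These are the 250 bases before its annotated start in RefSeq (GRCm38.p6, chr12:76795555-76795804, minus strand), 5′ to 3′, with TGAC and its reverse complement GTCA in capitals.
Gpx2: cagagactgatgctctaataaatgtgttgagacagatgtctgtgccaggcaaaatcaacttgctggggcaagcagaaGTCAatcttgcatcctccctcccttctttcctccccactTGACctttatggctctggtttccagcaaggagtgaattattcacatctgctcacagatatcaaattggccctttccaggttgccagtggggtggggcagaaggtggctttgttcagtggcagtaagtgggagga
The capitals mark the first letters of the core of the electrophile response element, TGACNNNGC, to which NRF2 binds with its small MAF partners. TGAC occurred here 2 times, with first bases 173 and 134 bases before the start. Neither was followed by the rest of the core. On both strands, TGACNNNGC was found in 0 of the 10 windows of the 7 genes (Gpx4 had 4 windows, the others 1 each) and in 10.2% of the 32851 windows of this length in the table. TGAC alone was in 8 of the 10 windows and in 80.2% of all windows, and every match of the longer motif also holds the shorter one. The search covered these windows only.

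Across arrays, the median spot signal ran from 71.2 to 105 in Cy5 and from 67.5 to 93.4 in Cy3, and 66.1% to 79.1% of probes were well above background in Cy5. The 16 arrays carried 8 slide barcodes, each shared by 1 NNK-injected and 1 uninjected mouse of the same replicate number. Arrays with the same barcode are called a slide here, on the file headers alone, and whether they lay on 1 physical slide is not known. Slides 1 to 4 held Untreated and NNK, and slides 5 to 8 held SECY and NNK+SECY, so diet and slide set cannot be told apart. The NNK-injected and uninjected arrays were scanned 4 days apart, so NNK and scan day cannot be told apart either. SECY 3 stood apart from its group, with a mean correlation of 0.0373 with the other SECY arrays over all tested genes, against 0.125 to 0.564 for the other 15 arrays within their groups. List counts that change without SECY 3 are given with both values.

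**Figure D1:**
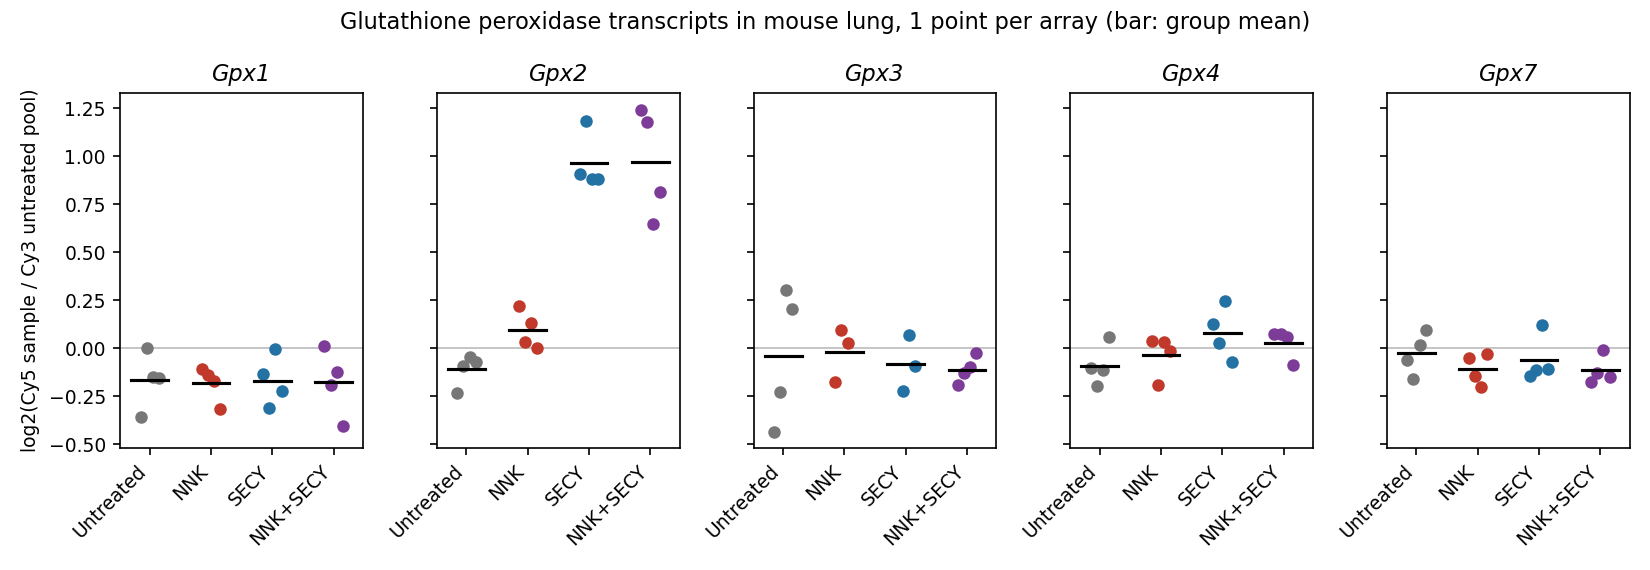
Normalised log2(Cy5/Cy3) of the 5 tested genes on each array, where 0 is the signal of the Untreated pool; points are single arrays, bars are group means, and Gpx3 lacks 1 NNK and 1 SECY array. In Gpx2 the 8 arrays of selenocystine-fed mice lie between 0.65 and 1.24, above all 8 arrays of the other mice, and in the other genes the groups overlap.

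Gpx2, the gastrointestinal-type selenoenzyme, rose in the lungs of selenocystine-fed mice with and without NNK. Its log2(Cy5/Cy3) was -0.23, -0.09, -0.05 and -0.07 on the 4 Untreated arrays, a mean of -0.11 ± 0.08 (SD, n = 4). It was 0.91, 1.19, 0.88 and 0.88 on the SECY arrays, a mean of 0.96 ± 0.15 (SD, n = 4). Every SECY array lay above every Untreated array, with no value of either group between -0.05 and 0.88. SECY exceeded Untreated by a log2 fold change of 1.08 ± 0.11 (SE), which is 2.11-fold with a 95% interval of 1.79 to 2.48 (limma, Benjamini-Hochberg adjusted p = 6.38e-05). By this test 0.278% of all genes passed in this comparison, and by overlap alone 3.96% of genes with all 8 values had groups that did not overlap. Of the 5 tested peroxidases, 1 rose and 0 fell. In whole lung, fewer cells of a type and less RNA per cell cannot be told apart, and likewise more cells and more RNA per cell.

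In NNK-injected mice the rise with selenocystine was found again, against other control mice. The NNK arrays gave 0.22, 0.03, 0.13 and 0.0034 for Gpx2, a mean of 0.10 ± 0.10 (SD, n = 4). The NNK+SECY arrays gave 1.24, 1.18, 0.65 and 0.81, a mean of 0.97 ± 0.29 (SD, n = 4). The groups did not overlap, and the NNK+SECY arrays were spread the widest of the 4 groups. The log2 fold change was 0.87 ± 0.11, or 1.83-fold with an interval of 1.56 to 2.16 (adjusted p = 0.000621), in a comparison in which 1.75% of genes passed and 8.47% did not overlap. Against Untreated, NNK+SECY was higher by 1.08 ± 0.11, or 2.12-fold with an interval of 1.8 to 2.49 (adjusted p = 6.43e-05), where 1.6% of genes passed and 6.81% did not overlap. That comparison shares its arrays with the other selenocystine comparisons and is not separate evidence. Gpx2 passed in all 3 under each of 29 other settings, among them each single array left out, SECY 3 included. None of these settings separates diet from slide set.

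Gpx2 did not pass in either comparison of NNK-injected with uninjected mice. NNK exceeded Untreated by 0.21 ± 0.11 on the log2 scale, with an interval of -0.03 to 0.44 (adjusted p = 1). Here all 4 NNK arrays lay above the 4 Untreated arrays, as 3.79% of genes did in 1 direction or the other, while 0.32% of genes passed. On the shared slides, the NNK array was above its Untreated partner by 0.46, 0.12, 0.18 and 0.07. Between NNK+SECY and SECY the log2 difference was 0.01 ± 0.11, with an interval of -0.23 to 0.24 (adjusted p = 0.997). On those slides the injected mouse differed from its partner by 0.34, -0.01, -0.23 and -0.07, so the partners differed in both directions. In that comparison 0.00942% of genes passed and 2.84% did not overlap. The interaction, which is the NNK difference under selenocystine minus that without it, was -0.20 ± 0.16 with an interval of -0.53 to 0.13 (adjusted p = 1). Of all genes 0.00471% passed for the interaction.

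The signal in each dye showed where the change in Gpx2 ratio lay. The background-corrected and normalised Cy5 level, which comes from the mouse, had group means of 8.94 ± 0.03 in Untreated, 9.20 ± 0.20 in NNK, 10.19 ± 0.20 in SECY and 10.30 ± 0.34 in NNK+SECY (log2, SD, n = 4). The Cy3 level, which comes from the same pool on every array, had means of 9.05 ± 0.08, 9.10 ± 0.11, 9.23 ± 0.07 and 9.33 ± 0.06 in the same order. SECY thus exceeded Untreated by 1.26 in Cy5 and by 0.18 in Cy3. NNK+SECY exceeded NNK by 1.1 in Cy5 and by 0.23 in Cy3. Most of the difference was in the dye of the mouse, and a smaller difference of the same sign was in the dye of the pool. Before correction, the Gpx2 spot in Cy5 read 498 to 562 on the Untreated arrays, 503 to 776 on the NNK arrays, 1153 to 1660 on the SECY arrays and 1220 to 2011 on the NNK+SECY arrays. The spot stood 10.9 to 41.9 times above its local background and was saturated on 0 arrays.

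**Figure D2:**
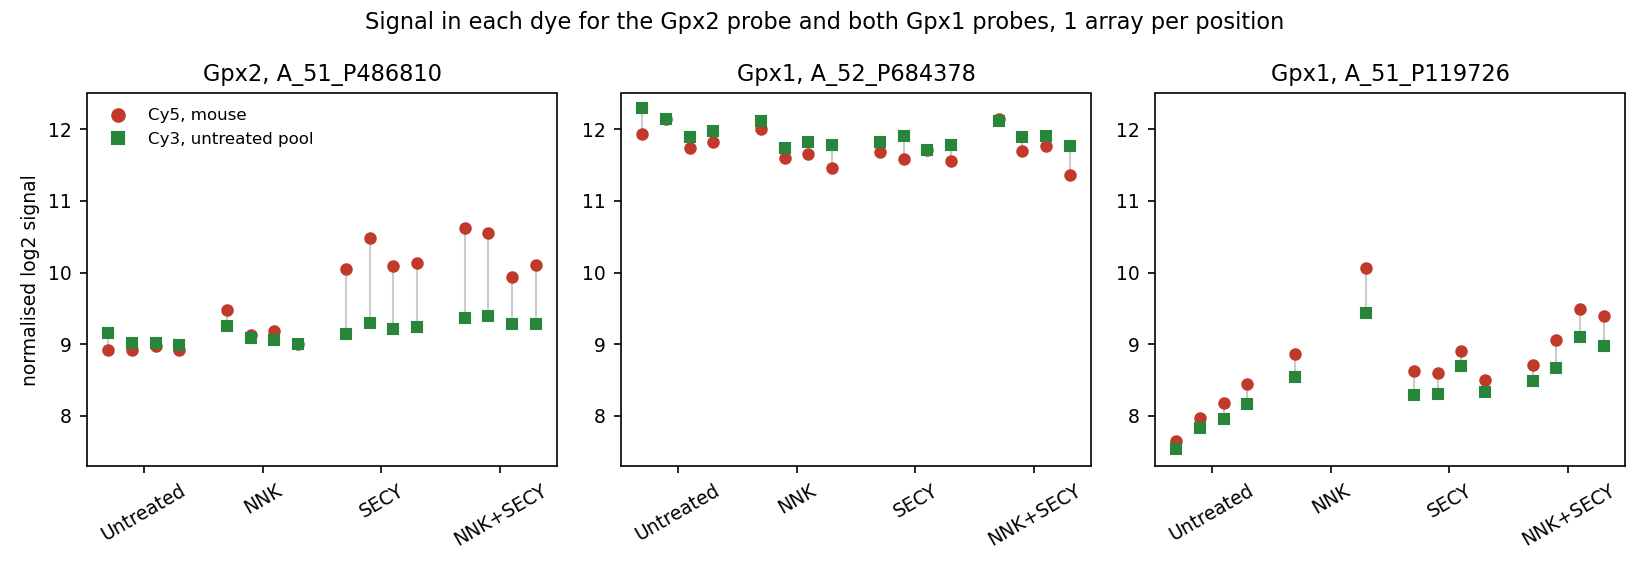
Normalised log2 signal of the Gpx2 probe and of the 2 Gpx1 probes on each array, with Cy5 (circles, the mouse) joined to Cy3 (squares, the Untreated pool); 2 NNK arrays lack a value for probe A_51_P119726. For Gpx2 the dyes part on the SECY and NNK+SECY arrays, whereas for A_51_P119726 both dyes move together between arrays, from 7.54 to 9.44 in Cy3.

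Gpx1, the abundant cytosolic selenoenzyme, did not pass in any comparison. Its brighter probe, A_52_P684378, stands for the gene. That probe gave log2(Cy5/Cy3) values of -0.36, 0.0017, -0.15 and -0.15 in Untreated, and -0.11, -0.14, -0.17 and -0.32 in NNK. It gave -0.14, -0.31, -0.0049 and -0.22 in SECY, and 0.01, -0.19, -0.12 and -0.41 in NNK+SECY. The group means lay between -0.18 and -0.16, and all groups overlapped. The log2 fold changes ran from -0.02 to 0.01 over the 5 pairs of groups, each with an SE of 0.09 (adjusted p from 0.991 to 1). For SECY against Untreated the interval was -0.20 to 0.19, or 0.872-fold to 1.14-fold, which does not reach the lower bound of the Gpx2 interval in that comparison. For NNK+SECY against NNK it was -0.19 to 0.20.

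The other Gpx1 probe, A_51_P119726, varied strongly between arrays in both dyes. Its Cy5 spot read from 191.6 on Untreated 1 to 1352 on NNK 4, and its Cy3 spot, which holds the same pool on all arrays, from 134.7 to 619 on the same arrays. NNK exceeded Untreated by 1.4 in normalised Cy5 and by 1.11 in Cy3, on the log2 scale. NNK+SECY exceeded Untreated by 1.1 and 0.93, and SECY exceeded Untreated by 0.60 and 0.53. Because the dyes moved together, the ratios differed far less. NNK against Untreated gave 0.29 ± 0.08 in the ratio (adjusted p = 0.447) with only 2 NNK arrays, since the spot was marked as an outlier on NNK 2 and NNK 3 and left out there. NNK+SECY against Untreated gave 0.17 ± 0.07 (adjusted p = 0.439). On the Cy5 level alone these differences became 1.4 ± 0.30 and 1.1 ± 0.24 and passed (adjusted p = 0.0332 and 0.0118). The Cy3 values stand beside them, and their part in those calls was not tested. The brighter probe on the Cy5 level alone did not pass in any comparison.

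Gpx3, the secreted plasma form, did not pass in any comparison, and its Untreated mice differed the most among themselves. The Untreated arrays gave -0.43, -0.23, 0.30 and 0.21, a mean of -0.04 ± 0.35 (SD, n = 4). NNK gave -0.18, 0.09 and 0.03, SECY gave -0.22, 0.07 and -0.09, and NNK+SECY gave -0.19, -0.13, -0.10 and -0.02. The Untreated range enclosed every value of the other groups. NNK 4 and SECY 1 have no value because their spots were marked as outliers. The log2 fold changes ran from -0.09 to 0.02 with SEs of 0.13 to 0.14 (adjusted p from 0.896 to 1). For SECY against Untreated the interval was -0.35 to 0.26, wider than those of Gpx1, Gpx4 and Gpx7.

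Gpx4, which reduces phospholipid hydroperoxides in membranes, did not pass in any comparison. Its arrays gave -0.10, -0.20, -0.12 and 0.06 in Untreated, and 0.04, -0.19, 0.03 and -0.01 in NNK. They gave 0.13, 0.03, 0.25 and -0.07 in SECY, and 0.07, 0.07, 0.06 and -0.09 in NNK+SECY. All groups overlapped. Its largest difference was SECY against Untreated, at 0.17 ± 0.07 on the log2 scale with an unadjusted interval of 0.01 to 0.33 (adjusted p = 0.536), which is 1.01-fold to 1.26-fold. NNK+SECY against Untreated gave 0.12 ± 0.07 (interval -0.04 to 0.28, adjusted p = 0.73), and NNK+SECY against NNK gave 0.06 ± 0.07 (interval -0.10 to 0.22, adjusted p = 0.864). Under the other settings SECY against Untreated ran from 0.08 to 0.22, always above 0, with adjusted p from 0.391 to 0.84.

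**Figure D3:**
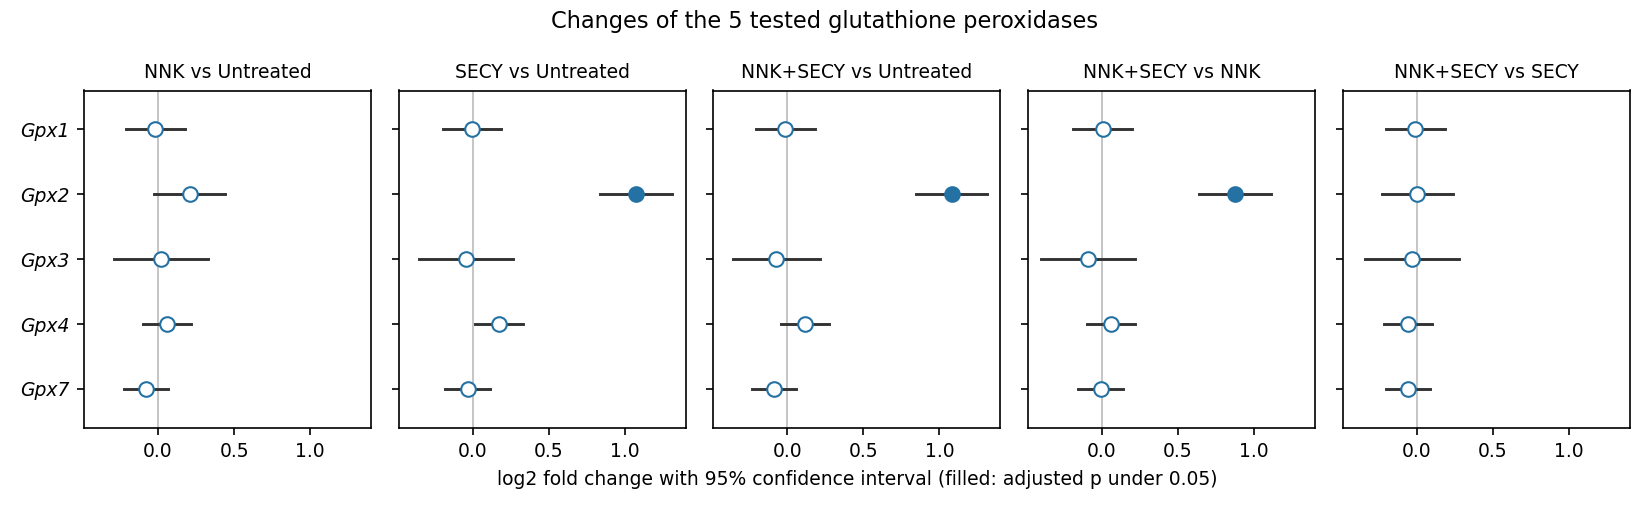
Log2 fold changes of the 5 tested genes in the 5 comparisons between pairs of groups, with 95% confidence intervals of the limma model; filled points passed at an adjusted p under 0.05. The 3 filled points are Gpx2 at 1.08, 1.08 and 0.87, and the interval of every open point other than Gpx4 in SECY against Untreated includes 0.

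Of the cysteine forms Gpx5, Gpx6 and Gpx7, Gpx7 was the one well above background. Gpx7 resides in the endoplasmic reticulum, where it takes part in oxidative protein folding. Its spot stood 2.77 to 4.76 times above background in Cy5, well above it on all 16 arrays by the scanner software's own test. The arrays gave -0.06, -0.16, 0.02 and 0.09 in Untreated, and -0.05, -0.15, -0.20 and -0.03 in NNK. They gave -0.14, -0.11, 0.12 and -0.11 in SECY, and -0.17, -0.13, -0.01 and -0.15 in NNK+SECY. The groups overlapped in every comparison. The log2 fold changes ran from -0.09 to -0.01 with an SE of 0.07 (adjusted p from 0.819 to 1), and the interval for SECY against Untreated was -0.18 to 0.11.

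Gpx5, known from the epididymis, and Gpx6, known from olfactory tissue, were not well above background on any of the 16 arrays in either dye. The Cy5 spot of Gpx5 was 1.03 to 1.23 times its local background, with a median of 1.14. That of Gpx6 was 1 to 1.14 times, with a median of 1.1. No fold change is given for either. Thus 1 of these 3 cysteine forms and all 4 selenium-containing forms were tested, and the rise was in 1 of those 4.

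The likeness of the members to each other ranged widely. Pearson's r of the log2 ratio over the 16 arrays (14 for pairs with Gpx3) ran from -0.229 for Gpx2 with Gpx7 to 0.546 for Gpx2 with Gpx4, over 10 pairs. After subtraction of each group's mean, the r of Gpx2 with Gpx4 was 0.165. That of Gpx4 with Gpx7 was then 0.595, that of Gpx3 with Gpx7 0.472 and that of Gpx1 with Gpx4 0.347, and the lowest was -0.282 for Gpx2 with Gpx7. These values describe arrays that share the pool and, in pairs, a slide.

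The genes whose pattern over the 16 arrays was most like that of Gpx2 were Nqo1, a quinone reductase (r = 0.968), Gsr, glutathione reductase (0.961), Gsta2, an alpha-class glutathione transferase (0.956), Ces1g, a carboxylesterase (0.945), and Entpd5, a nucleotidase of the endoplasmic reticulum (0.942). After subtraction of the group means, r with Gpx2 was 0.647 for Nqo1, 0.829 for Gsr, 0.637 for Gsta2, 0.268 for Ces1g and 0.592 for Entpd5. The likeness of Ces1g thus lay mainly in the group means, and that of Gsr also in differences between mice of a group. For SECY against Untreated the log2 fold changes were 1.43 ± 0.13 for Nqo1, 0.87 ± 0.12 for Gsta2, 1.48 ± 0.08 for Ces1g and 0.47 ± 0.08 for Entpd5 (adjusted p = 2.6e-05, 0.00116, 6.8e-08 and 0.00901). These genes were picked for their likeness to Gpx2 over the same arrays, so their differences and p-values are not separate evidence. The call of Entpd5 was lost when only the arrays of these groups were fitted (adjusted p = 0.15), and the value of Gsr is given with the glutathione genes. None of these was among the 5 genes most like another tested peroxidase. Genes with a clone or accession name, or without a value on all 16 arrays, were passed over in these rankings. Lists of 5 picked from the many genes left seldom overlap, so the lack of overlap is not a result about Gpx2. Most like Gpx1 were Tspan33 (0.856), Sh2b2, Nanos3, Klc2 and Hif3a (0.82), and most like Gpx3, over 14 arrays, were Snx33 (0.904), Atf5, Marveld1, Shroom3 and Spns1 (0.878). Most like Gpx4 were Zfand2b (0.862), Drg1, Ppp1r14b, Ddx56 and Stn1 (0.816), and most like Gpx7 were Ttc7 (0.84), Vwa1, Cyc1, Mir124a-1hg and Chst14 (0.813). After subtraction of the group means, Tspan33 gave 0.89 with Gpx1, Snx33 0.931 with Gpx3, Zfand2b 0.865 with Gpx4 and Ttc7 0.929 with Gpx7. The 0.829 of Gsr with Gpx2 was below these values. The picks are not alike, because Gpx2 differed between groups and the other members did not pass in any comparison, so no conclusion is drawn.

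The other selenoproteins were compared with the selenium-containing peroxidases. Of 20 listed, 18 were tested and Dio3 and Selenov were not. In each of the 3 comparisons with a selenocystine diet 1 of the 18 rose and 0 fell, beside 0.278% to 1.75% of all genes that passed. The median log2 fold change of the list was between -0.0044 and 0.0263. The gene that rose was Txnrd1, the cytosolic thioredoxin reductase, by 0.81 ± 0.09 for SECY against Untreated, 0.83 ± 0.09 for NNK+SECY against Untreated and 0.79 ± 0.09 for NNK+SECY against NNK (adjusted p = 0.000181, 0.00015 and 0.000271). Of 16 genes for selenium handling and selenocysteine insertion, 0 passed in any comparison by limma, where at most 1.75% of all genes did. At an unadjusted p under 0.05 the count was 0 for SECY against Untreated, beside 8.11% of all tested genes. It was 1 for NNK against Untreated, beside 5.04%. In SECY against Untreated the smallest p-values were those of Selenbp2, a selenium-binding protein, at 0.21 ± 0.14, and of Elavl1, an RNA-binding protein, at 0.10 ± 0.07.

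Over all genes, 0.278% to 1.75% passed in the 3 selenocystine comparisons. The list of 15 other peroxide-removing enzymes holds enzymes that remove peroxides or keep such enzymes active. It also holds the superoxide dismutases Sod1, Sod2 and Sod3, which form hydrogen peroxide rather than remove it. In each of the selenocystine comparisons 1 of the 15 rose and 0 fell. It was Srxn1, sulfiredoxin, which restores overoxidised peroxiredoxins, at 1.34 ± 0.13 for SECY against Untreated, 1.34 ± 0.13 for NNK+SECY against Untreated and 1.29 ± 0.13 for NNK+SECY against NNK (adjusted p = 2.82e-05, 3.34e-05 and 6.68e-05). The list's medians were 0.05, 0.05 and 0.02, beside medians of -0.0034, 0.00037 and -0.0021 over all tested genes. Without SECY 3 the counts that rose were 3, 2 and 3. Without Untreated 1 or SECY 2, the count for NNK+SECY against NNK was 2. Gpx8, a further cysteine member of the family, belongs to this list and gave -0.01 ± 0.10 for SECY against Untreated, with an interval of -0.22 to 0.19.

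**Figure D4:**
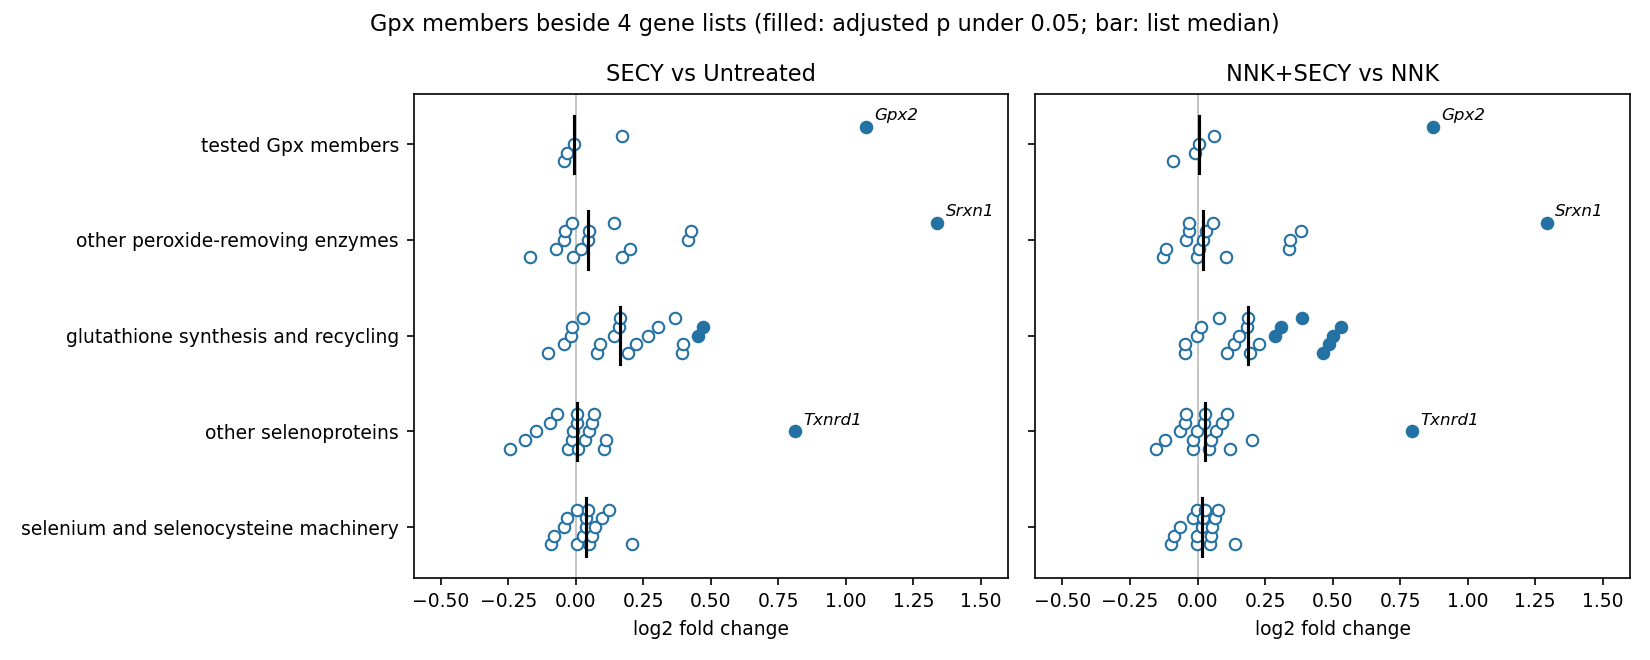
Log2 fold changes of the tested Gpx genes and of 4 gene lists in SECY against Untreated and in NNK+SECY against NNK; each point is a gene, filled points passed at an adjusted p under 0.05, and bars are medians. Gpx2, Srxn1 and Txnrd1 stand at the right of their lists in both panels, and the list of glutathione synthesis and recycling has its median at 0.17 and 0.19.

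Glutathione is the substrate of these enzymes. The 19 genes of the fourth list serve its synthesis, recycling or breakdown, cystine uptake, NADPH supply or the pentose phosphate pathway. Pgd, Me1, G6pdx and Taldo1, named below, belong to NADPH supply or that pathway. Of all genes 0.278% passed in SECY against Untreated, 1.75% in NNK+SECY against NNK and 1.6% in NNK+SECY against Untreated. In SECY against Untreated 2 of the 19 rose, 0 fell and 17 did not pass, with a median of 0.17. They were Pgd, which makes NADPH in the pentose phosphate pathway, at 0.47 ± 0.07, and Gsr at 0.45 ± 0.08 (adjusted p = 0.00218 and 0.0135). In NNK+SECY against NNK 7 rose, 0 fell and 12 did not pass, with a median of 0.19. The 6 with the smallest p were Pgd at 0.46 ± 0.07, Gsr at 0.53 ± 0.08, Gclc, the catalytic subunit of the first step of glutathione synthesis, at 0.50 ± 0.09, Me1, malic enzyme, at 0.49 ± 0.09, G6pdx at 0.31 ± 0.06 and Taldo1 at 0.29 ± 0.07. Under the 29 other settings the calls of Pgd, Gsr, Gclc and Me1 always held. That of G6pdx held under 27 and that of Taldo1 under 19. In NNK+SECY against Untreated 8 rose and 0 fell, led by Gsr at 0.52 ± 0.08 and Pgd at 0.42 ± 0.07, again with a median of 0.19. These counts moved when 1 array was left out. That of SECY against Untreated was 1 without Untreated 2, Untreated 4 or SECY 2 (the call of Gsr was lost), 4 without SECY 3 and 5 without SECY 4. That of NNK+SECY against NNK was 4 without NNK 4 and 8 without SECY 3. That of NNK+SECY against Untreated was 2 without Untreated 4, 3 without NNK+SECY 1 or 4, 4 without Untreated 1, Untreated 3, NNK 3, NNK 4 or NNK+SECY 2, and 5 without Untreated 2 or NNK+SECY 3.

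NNK without the diet left these lists below the threshold. Of the 5 tested peroxidases, 0 rose and 0 fell for NNK against Untreated by limma, where 0.32% of all genes passed. An unadjusted p under 0.05 was found for 0 of the 5, beside 5.04% of all tested genes. A count of 0 among 5 genes is near both shares. In the 4 lists 0 genes passed, again beside 0.32% of all genes. The lists of other peroxide-removing enzymes, glutathione genes, other selenoproteins and selenium handling had 15, 19, 18 and 16 tested genes. Of these 0, 2, 2 and 1 had an unadjusted p under 0.05, beside 5.04% of all tested genes. The smallest p-values of the glutathione list belonged to Ggt6, a gamma-glutamyltransferase, at 0.22 ± 0.07 and Gss, glutathione synthetase, at 0.15 ± 0.07 (adjusted p = 0.438 and 0.986).

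Markers of lung cell types were read beside these values. Of 73 markers in 11 lists, 0 passed for SECY against Untreated by limma, and 8 (11%) had an unadjusted p under 0.05, beside 8.11% of all tested genes. All 8 tested alveolar macrophage markers were below 0, with a median of -0.16 and a mean ratio per array of -0.27 to -0.14 in SECY against -0.11 to -0.03 in Untreated. Of 9 alveolar type 2 markers 8 were below 0 (median -0.14), and the ranges per array, -0.29 to -0.15 in SECY and -0.20 to -0.03 in Untreated, overlapped. The 4 tested red blood cell markers were all below 0 (median -0.30), with array means of -0.78 to -0.11 in SECY and -0.59 to 0.27 in Untreated. Also below 0 were 6 of 7 endothelial markers (median -0.12) and 6 of 8 fibroblast and smooth muscle markers (median -0.09). Above 0 were 6 of 8 ciliated and 5 of 6 adipose markers. For NNK+SECY against NNK 0 markers passed and 8 (11%) had an unadjusted p under 0.05, beside 9.9% of all genes. There 7 of 8 fibroblast and smooth muscle markers were below 0 (median -0.22), with array means of -0.34 to -0.14 in NNK+SECY and -0.11 to 0.05 in NNK, and so were all 4 red blood cell markers (median -0.31). Of the 8 alveolar macrophage markers 4 were above and 4 below 0 in that comparison (median -0.03). For NNK+SECY against Untreated 18 markers (24.7%) had an unadjusted p under 0.05, beside 9.23% of all genes, and 2 rose and 1 fell. All 8 ciliated markers were above 0 for NNK against Untreated (median 0.155). Their array means were 0.09 to 0.19 in NNK and -0.12 to 0.08 in Untreated. For NNK+SECY against Untreated 7 of the 8 were above 0 (median 0.181), with array means of 0.0046 to 0.305 in NNK+SECY. Of these ciliated markers 0 passed in either comparison. With NNK, the basal cell keratin Krt15 and the uroplakin Upk3a rose, by 0.58 ± 0.11 and 0.74 ± 0.10 for NNK against Untreated (adjusted p = 0.0381 and 0.00396). Both also rose for NNK+SECY against Untreated, by 0.89 ± 0.11 and 0.94 ± 0.10, where Gpx2 rose as well, and the secretory protein Bpifa1 fell by 0.41 (adjusted p = 0.0473). The other markers of those lists did not pass in either comparison. For NNK+SECY against Untreated the other 4 basal markers gave -0.0056 for Krt5, -0.04 for Krt14, -0.13 for Ngfr and 0.05 for Trp63, and the list's median was -0.0056. The other 3 tested squamous markers gave 0.04 for Upk1b, 0.0084 for Sprr1a and -0.0061 for Krt13, with a list median of 0.02. Krt15, Upk3a and Bpifa1 were singled out after their values were seen. The part of cell composition in the values of Gpx2 was not tested.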

How the data were processed

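Per the file headers, the authors scanned the arrays and extracted spots with Feature Extraction 8.1.1.1. For each spot the deposited files give the mean intensity and the local background intensity per dye, and the log10 ratio of Cy5 to Cy3. The authors' deposited value table holds log2 ratios that equal this log10 ratio on the log2 scale within 0.005. From the mean intensity, normexp (offset 50) and loess within arrays were run in limma 3.58.1 (R 4.3.3, data.table version 1.17.8), with control and outlier spots left out. A gene was represented by its brightest probe and tested where every array of at least 1 group had that probe well above background in Cy5, which left 21248 genes. Signal per dye was taken after Aquantile scaling. A limma model with 1 mean per group over all 16 arrays gave fold changes, 95% intervals and p-values, adjusted by Benjamini-Hochberg over all genes tested, with a threshold of 0.05. The genes named were the 7 members, up to 6 called genes of each list (or the 2 with the smallest p), the 5 genes most like each tested member, and markers. The members, lists and tests were chosen with earlier results of these data known. Tests were checked on simulated data with independent noise on each array, so effects that arrays share, such as slide or scan day, were not covered. Promoter windows came from RefSeq (GRCm38.p6), and array positions were not used. Of the probes, 22072 were named by accession, 6280 by symbol, 4226 by synonym, and 8596 kept the name in the file. Alternatives covered signal source, background correction, centring, probe filter, probe summary, use of the pool, array weights, slide and replicate blocks, and each array left out.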

Additional observations from a re-analysis of the deposited data

Results flagged for a closer look

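Of 29 groups of 4 arrays tested, 5 held an array far from the other 3 by Dixon's criterion, which chance meets in about 1 of 20 groups. For Gpx2, SECY 2 was the highest of its group at 1.19, and the other SECY arrays lay between 0.88 and 0.91. Without SECY 2 the Gpx2 log2 fold change of SECY against Untreated was 1.00. For Gpx4, NNK+SECY 4 was the lowest of its group at -0.090, with the others between 0.06 and 0.07. For Gpx7, SECY 3 was the highest at 0.12, with the others between -0.14 and -0.11. For the Gpx1 probe A_51_P119726, NNK+SECY 1 was the lowest at 0.23, with the others between 0.39 and 0.42. For Gpx5, which was not well above background, SECY 3 was the lowest at 0.0086, with the others between 0.09 and 0.10.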

How the results depend on the processing

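Of 29 alternatives, each kept the number of peroxidases called at 1 in the 3 selenocystine comparisons and at 0 in the others and in the interaction, which 28 could give. The Gpx2 log2 fold change ran from 1 to 1.26 for SECY against Untreated, from 0.989 to 1.37 for NNK+SECY against Untreated and from 0.782 to 1.1 for NNK+SECY against NNK, with adjusted p of at most 0.000874, 0.002 and 0.00441. Leaving out 1 array gave 1 to 1.1, 0.989 to 1.19 and 0.782 to 0.981. The labels name nothing that same-numbered mice share, and the file headers give a shared slide barcode to 8 of the 24 same-numbered pairs of arrays. Deviations from the group means correlated above 0.1 in 11 of these 24 pairs (median 0.0853). Among pairs of different number they did so in 13 of 72 (median -0.0333). By the median, same-numbered arrays were thus more alike than others, and the reason was not tested. The main model took no pairing because the labels name none, and a replicate block was run beside it. With a replicate block Gpx2 stayed at 1.075, 1.081 and 0.8733 (adjusted p = 0.000131, 0.000115 and 0.000551), and the genes called for SECY against Untreated went from 59 to 110. Of 865 values of the tested peroxidases under alternatives, 71 changed sign, all of them not called. Counts over all genes moved more: for SECY against Untreated from 29 (only the arrays compared) to 4619 (Cy5 level alone), for NNK against Untreated from 18 (without NNK 3) to 462, for NNK+SECY against Untreated from 164 (without NNK+SECY 4) to 3298, for NNK+SECY against NNK from 279 to 1633, and for NNK+SECY against SECY from 0 to 29. The highest counts came with the Cy5 level alone, and the cause was not tested. Of the glutathione list, 0 to 7 genes rose for SECY against Untreated, 2 (median centring) to 9 for NNK+SECY against Untreated and 4 to 8 for NNK+SECY against NNK. Srxn1 and Txnrd1 passed under all 29 alternatives in the 3 selenocystine comparisons. In the list of other peroxide-removing enzymes, array weights, which lowered SECY 3, or leaving it out gave 2 to 4 genes that rose in place of 1. With the Cy5 level alone up to 2 genes of that list fell. A block for scan day was not run, because scan day coincides with the NNK injection. Gpx5 and Gpx6 were limited by signal at background, and Gpx3 and the other Gpx1 probe by spots left out.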
